A study of Mus musculus with 12 samples.

Results

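The genes described here are 10 transcription factor genes that act in blood progenitors and early thymic precursors and that can drive T-cell acute lymphoblastic leukemia (T-ALL) when they are active in the wrong cells. They are Tal1, Lyl1, Lmo1, Lmo2, Hhex, Mef2c, Meis1, Hoxa9, Tlx1 and Tlx3, taken by symbol from the 50600 genes listed for each library. All 10 were listed, and 7 of them (Tal1, Lyl1, Lmo1, Lmo2, Hhex, Mef2c and Meis1) had enough reads to pass the low-count filter and be tested. Hoxa9, Tlx1 and Tlx3 did not pass and are given as read counts.

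RNA of 12 mice, 3 in each of 4 groups, was sequenced after poly(A) selection as part of a study of how Dnmt1, the enzyme that copies DNA methylation to newly made strands, bears on lymphoma driven by the fusion kinase NPM-ALK. Ctrl samples were thymocytes of mice labelled DNMT1 fl/fl, aged 20 to 25 wk, and KO samples were thymocytes of mice labelled DNMT1 fl/fl CD4-CRE, aged 20 to 21 wk. ALK samples were T cell lymphoma cells of mice labelled NPM-ALK+, aged 22 to 31 wk, and ALKKO samples were thymocytes of mice labelled NPM-ALK+, DNMT1 fl/fl CD4-CRE, aged 19 to 25 wk. Ctrl, KO and ALKKO mice thus shared the floxed allele, which the ALK labels do not name, and KO replicate 2 was the 1 female. Both the human transgene and the Cre recombinase were driven by Cd4 regulatory elements, so cells that never activate Cd4 express neither, and whole tissue was homogenized, so cells other than thymocytes contributed RNA.

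Tal1 and Lyl1 are basic helix-loop-helix proteins that pair with E proteins and join Lmo1 or Lmo2, LIM-only adaptors that do not bind DNA themselves, in a complex that holds blood stem and progenitor cells in their immature state. Hhex is a homeobox factor of progenitors and B cells, and Mef2c is a MADS-box factor of early lymphoid, B, myeloid and muscle cells. Meis1 and Hoxa9 are homeobox partners that bind DNA together with Pbx proteins, and Tlx1 and Tlx3 are homeobox factors that are silent in the normal thymus. Most of these genes are normally switched off as thymocytes commit to the T lineage, and their aberrant activation defines subtypes of human T-ALL.

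Between 12473857 and 18864327 reads per library fell on genes, so that 3 reads, taken as the detection floor, correspond to 0.158 to 0.261 CPM (counts scaled to library size with TMM normalization). The labels were checked on the targeted genes. Dnmt1 lay at 400 to 487 CPM in Ctrl, at 206 to 243 CPM in KO, at 205 to 244 CPM in ALKKO and at 378 to 787 CPM in ALK, and reads assigned to Alk lay at 34.8 to 54.9 CPM in ALK and ALKKO against 0.107 to 0.431 CPM in Ctrl and KO. KO replicates 2 and 3 stood apart from the other thymus libraries. In KO replicate 2, the summed level of 10 B cell markers was 2738 CPM against 80.4 to 148 CPM in the 8 other thymus libraries, that of 13 macrophage and granulocyte markers was 3423 CPM against 901 to 1375 CPM, that of 11 T cell markers was 4430 CPM against 8012 to 11589 CPM, and that of 6 thymic epithelial markers was 124 CPM against 727 to 1130 CPM. In KO replicate 3, the summed level of 10 muscle markers was 6016 CPM against 6.97 to 34.3 CPM in the other 11 libraries. Results for the members that rest on the KO group are therefore given also without KO replicate 2, and the calls without KO replicate 3 are given beside those of ALK against KO. In ALK tumors the T cell markers summed to 3179 to 4016 CPM, and none of the 11 was at 0.

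In thymocytes of Ctrl mice the 10 genes covered a wide range of levels. CPM per kilobase of exon was used to set the genes side by side. This scale is rough, because reads seem to have been counted over whole gene spans, introns included. On it, Lmo2 was at 3.71 ± 1.07 (SD, n = 3), Lyl1 at 1.88 ± 0.0843, Meis1 at 0.975 ± 0.378, Lmo1 at 0.944 ± 0.547, Hhex at 0.749 ± 0.186, Mef2c at 0.459 ± 0.107 and Tal1 at 0.29 ± 0.229. Neighbours in this order from Meis1 to Hhex, and Mef2c and Tal1, did not differ beyond the spread between mice. Hoxa9 was at 0.0543 ± 0.0297, and Tlx1 and Tlx3 rested on 2 reads and 1 read in the group. In ALK tumors the order was Lmo1 at 3.92 ± 6.12, Lmo2 at 2.76 ± 0.524, Lyl1 at 1.77 ± 1.26, Mef2c at 0.349 ± 0.12, Hhex at 0.297 ± 0.236, Tal1 at 0.236 ± 0.0398 and Meis1 at 0.141 ± 0.0899. The lead of Lmo1 came from 1 tumor, Lyl1 and Lmo2 did not differ beyond their spread, and neither did neighbours in the order from Mef2c to Meis1.

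**Figure D1:**
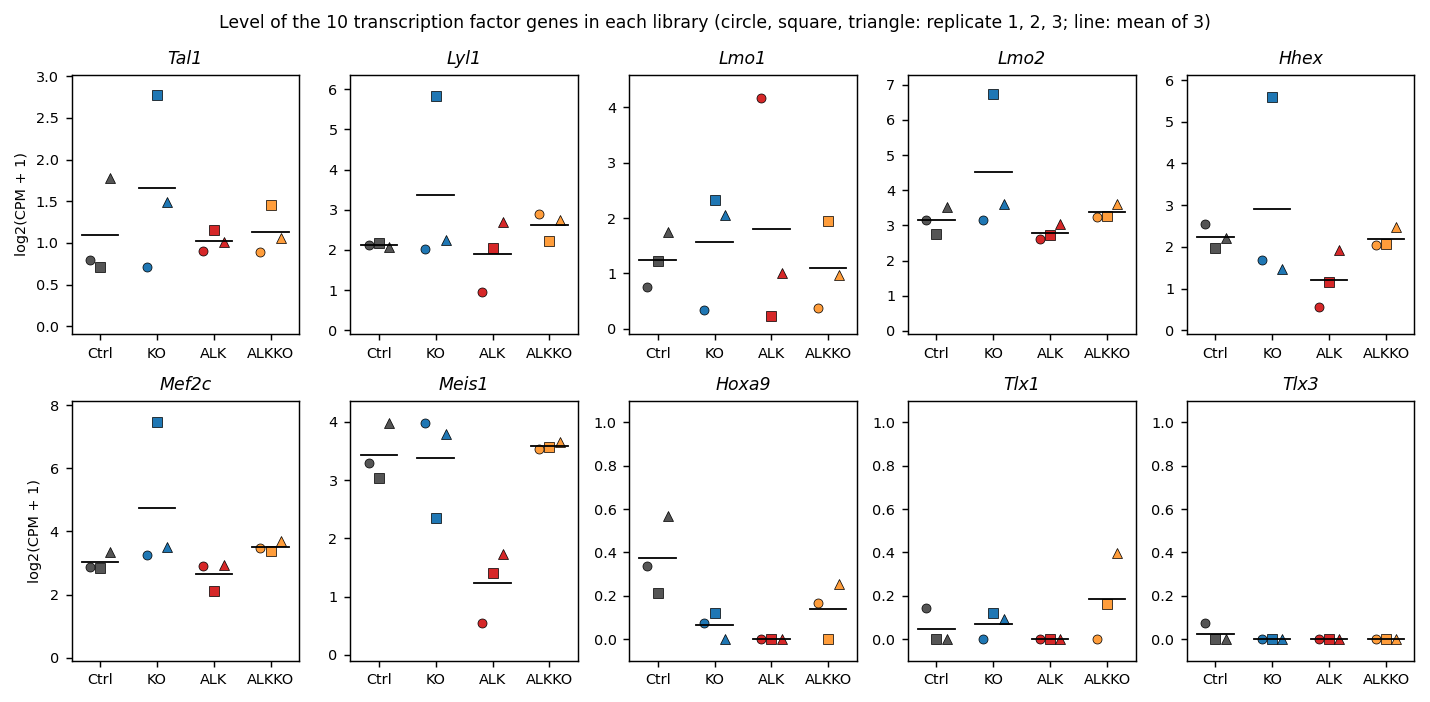
Level of each of the 10 genes as log2(CPM + 1) in the 12 libraries, by group, with a line at the mean of 3 on that scale and an axis of its own for each gene. Meis1 is low in all 3 ALK tumors (0.47 to 2.34 CPM), Lmo1 is high in ALK replicate 1 alone (17 CPM), and Lyl1, Lmo2, Hhex and Mef2c are high in KO replicate 2 alone.

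To find which of these factors changed in NPM-ALK tumors, ALK was compared with Ctrl. Genes counted as called where the adjusted p was under 0.05 and the log2 difference above 1 in size, a rule met by 20.4% of the 16052 genes tested. Of the 7 members tested, 1 was called, Meis1, which fell. Calls in that direction made up 12% of all genes tested, and the median log2 fold change of the 7 members was -0.39 against 0.05 over all genes tested.

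Meis1, which in leukemia sustains self-renewal together with Hoxa9, was at 8.87, 7.18 and 14.8 CPM in Ctrl and at 0.47, 1.65 and 2.34 CPM in ALK. It was at 14.8, 4.12 and 12.9 CPM in KO and at 10.6, 10.8 and 11.7 CPM in ALKKO. All 3 tumors lay below all 9 thymus libraries, the lowest of which was KO replicate 2. The level fell by 2.79 on the log2 scale in ALK against Ctrl (SE 0.622, adjusted p = 0.0088), by 2.89 against ALKKO (SE 0.625, adjusted p = 0.00793) and by 2.84 against KO (SE 0.624, adjusted p = 0.00735). Without KO replicate 2 the difference between ALK and KO was -3.25 (SE 0.556, adjusted p = 0.00307). In ALKKO against Ctrl it was 0.11 (SE 0.569, adjusted p = 1), and in KO against Ctrl it was 0.05 (SE 0.57, adjusted p = 0.993), or 0.43 without KO replicate 2 (SE 0.526, adjusted p = 1).

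Whether the NPM-ALK difference was alike with and without Dnmt1 deletion was asked with the interaction term, the difference ALKKO minus KO less the difference ALK minus Ctrl. Tumor cells enter this term in ALK only, so tissue state and genotype cannot be told apart, for Meis1 or for the genes below. For Meis1 the term was 2.84 on the log2 scale (SE 0.833, unadjusted p = 0.00626, adjusted p = 0.0549), which missed the threshold. Without KO replicate 2 it was 2.49 (SE 0.746, adjusted p = 0.0609). None of the 7 members tested was called in the interaction by edgeR. With all 12 libraries Meis1 was the 1 with an unadjusted p under 0.05 (27.7% of all genes tested). DESeq2's Wald test called Meis1 alone (adjusted p = 0.00449). The background was 8.93% of genes called. The adjusted p of Meis1 ranged from 0.00449 to 0.126 over the alternatives tried. The term of Hhex was -0.90 with all 12 libraries (SE 1.54, adjusted p = 0.748). Without KO replicate 2 it changed sign, to 2.22 (SE 0.848, unadjusted p = 0.0264, adjusted p = 0.122), and was not called.

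The marker sums that followed the order of Meis1 over replicates differed between the tumors and the thymus groups. The 6 thymic epithelial markers summed to 29.9, 102 and 199 CPM in the 3 tumors, the same order as Meis1. The summed T cell and dendritic cell markers had that order too. So did the mast cell sum, but it was nearly all Kit. In ALK the mean of that sum was 42.9 CPM and that of Kit alone was 42 CPM. In ALK replicate 2 the 6 mast cell markers other than Kit were at 0. In Ctrl the mast cell, B cell, endothelial, fibroblast, and macrophage and granulocyte sums had the order of Meis1, and the T cell and dendritic cell sums did not. In KO the epithelial and T cell sums had it. In Ctrl replicates 1, 2 and 3 the epithelial sums were 1074, 1130 and 1053 CPM, the reverse of the order of Meis1. In ALKKO they were 727 to 829 CPM, below all Ctrl libraries, while Meis1 lay within the range of Ctrl. KO replicate 2, the 1 thymus library with few epithelial marker reads, had a sum of 124 CPM, within the range of the tumors. Its Meis1 was the lowest of the 9 thymus libraries but above all 3 tumors. The 6 fibroblast markers summed to 931 to 2409 CPM in ALK against 200.4 to 349 CPM in Ctrl. Of these markers 4 lay wholly above Ctrl in ALK and 1, Dcn, lay wholly below. No epithelial or fibroblast marker was at 0 in a tumor. In these bulk samples fewer cells of a type and less RNA per cell cannot be told apart, and the part of the epithelial cells in the level of Meis1 was not tested. The genes whose log2(CPM + 1) was most like that of Meis1 over the 12 libraries were Afap1l2 (Pearson's r = 0.986), Dmrt2 (r = 0.986) and Secisbp2l (r = 0.984), and over the 11 libraries without KO replicate 2 they were Sfrp1 (r = 0.989), Isl1 (r = 0.989) and Meis2 (r = 0.988), among 14585 candidates whose mean level over all libraries reached 1 CPM. All of these points share the split between tumors and thymus, so the correlations are given as a description.

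The stretches just upstream of 3 members are shown, Meis1 for its fall in the tumors and Lyl1 and Mef2c as members that were high in KO replicate 2, and because Dnmt1 acts on CpG dinucleotides, which are in capitals. They are from RefSeq promoter windows on GRCm38.p6, which cover 9 of the 10 members, and end before the first annotated exon. Hhex and Lmo2 were also high in that library, but Lmo2 had no window and that of Hhex had 0 bases free of exons. The Meis1 stretch is chr11:19018986-19019219 on the minus strand, the Lyl1 stretch is chr8:84701207-84701456 on the plus strand, and the Mef2c stretch, 1 of 3 annotated starts, is chr13:83503784-83504033 on the plus strand.
Meis1: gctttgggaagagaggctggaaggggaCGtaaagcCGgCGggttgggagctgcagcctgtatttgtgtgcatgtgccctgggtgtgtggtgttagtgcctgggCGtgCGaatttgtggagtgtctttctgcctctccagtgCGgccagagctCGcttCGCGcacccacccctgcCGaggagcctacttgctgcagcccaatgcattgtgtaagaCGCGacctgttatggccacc
Lyl1: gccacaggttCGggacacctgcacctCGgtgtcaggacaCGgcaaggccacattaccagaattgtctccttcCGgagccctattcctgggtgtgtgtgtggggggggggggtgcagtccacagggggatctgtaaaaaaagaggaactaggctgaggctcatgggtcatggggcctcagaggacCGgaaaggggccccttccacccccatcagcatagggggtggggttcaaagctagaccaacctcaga
Mef2c: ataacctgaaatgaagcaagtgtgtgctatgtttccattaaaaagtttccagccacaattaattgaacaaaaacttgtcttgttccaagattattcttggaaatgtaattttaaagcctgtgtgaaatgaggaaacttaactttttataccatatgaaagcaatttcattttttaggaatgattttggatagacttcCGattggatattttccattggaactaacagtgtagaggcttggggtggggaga

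In the 250 bases before the start there were 13 CpG at Meis1, 5 at Lyl1 and 1 at this Mef2c start. The other Mef2c starts had 6 and 4. The median of 32851 such windows of all genes was 6 and the quartiles were 2 and 16. CANNTG, the E-box letters bound by factors such as Tal1 and Lyl1, occurred once at Meis1, once at Lyl1 and at 2 places at this Mef2c start. It occurred at 0 and 1 places at the other Mef2c starts, and in 66.2% of all windows, read on both strands. TGTGGT, the letters of a RUNX site, occurred once at Meis1 and in 14% of all windows. TTCNNNGAA, the letters of a STAT site, occurred once at this Mef2c start and in 7.02% of all windows, and AGATAA, those of a GATA site, occurred at none of these 3 starts and in 9.99% of all windows. These are matches of letters only, and promoter methylation was not analysed here.

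Meis1 lies at chr11:18879817-19018985 on the minus strand and shares 9.77% of its exon bases with other genes of that strand, in which reads count for neither gene. Lyl1 lies within Nfix, on the other strand, and no exon of Tal1, Lmo1, Lmo2, Hhex, Mef2c, Tlx1 or Tlx3 is shared with a gene of the same strand.

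Of the bHLH factors, Tal1, whose ectopic expression is among the commonest lesions of human T-ALL, was at 0.739, 0.643 and 2.42 CPM in Ctrl and at 0.872, 1.22 and 1.01 CPM in ALK. The tumors lay within the range of Ctrl. The log2 fold change was -0.29 (SE 0.779, adjusted p = 0.804), and ALKKO, at 0.846, 1.73 and 1.08 CPM, lay within the same range. KO libraries were at 0.635, 5.84 and 1.82 CPM, replicate 2 being the highest of all 12.

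Lyl1, the closest relative of Tal1 among the 10, was at 3.38, 3.53 and 3.23 CPM in Ctrl and at 0.939, 3.14 and 5.46 CPM in ALK. The tumors spread to both sides of the tight Ctrl values. The log2 fold change was -0.09 (SE 0.988, adjusted p = 0.955). ALKKO, at 6.47, 3.64 and 5.68 CPM, lay above all Ctrl libraries, by 0.64 on the log2 scale (SE 0.982, adjusted p = 1), which did not pass the test.

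Lmo1, a T-ALL oncogene that normal thymocytes hardly express, was at 17, 0.174 and 1.01 CPM in ALK and at 0.686, 1.34 and 2.37 CPM in Ctrl. ALK replicate 1 held 254 Lmo1 reads, the other tumors held 2 and 13, and no thymus library exceeded 48 reads. KO libraries were at 0.265, 4.04 and 3.16 CPM and ALKKO libraries at 0.302, 2.87 and 0.957 CPM. The log2 fold change of ALK against Ctrl was 2.05 (SE 1.42, adjusted p = 0.296), and without ALK replicate 1 it was -1.28 (adjusted p = 0.468), so its direction rested on that tumor. The same held against ALKKO, where 2.14 (SE 1.43, adjusted p = 0.283) became -1.17 without that tumor, and against KO, where 1.30 (SE 1.39, adjusted p = 0.49) became -2.03 without that tumor and 1.80 without KO replicate 2 (SE 1.67, adjusted p = 0.449). ALK replicate 1 also had the highest summed level of the 6 fibroblast markers, 2409 CPM against 145 to 1434 CPM in the other 11 libraries, whose part in the Lmo1 value was not tested. The genes most like Lmo1 over the 12 libraries were Adam15 (r = 0.958), Npr2 (r = 0.956) and 9330102E08Rik (r = 0.937).

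Lmo2, the obligate bridge of the TAL1 complex, was at 7.92, 5.78 and 10.4 CPM in Ctrl and at 5.1, 5.57 and 7.26 CPM in ALK. ALKKO libraries were at 8.4, 8.66 and 11.3 CPM. The tumors overlapped with Ctrl but lay below ALKKO. The log2 fold changes were -0.42 against Ctrl (SE 0.789, adjusted p = 0.714) and -0.66 against ALKKO (SE 0.79, adjusted p = 0.562).

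Hhex was at 4.8, 2.95 and 3.61 CPM in Ctrl, at 3.14, 3.17 and 4.53 CPM in ALKKO and at 0.47, 1.22 and 2.81 CPM in ALK. All 3 tumors lay below all Ctrl and ALKKO libraries, although the difference did not pass the test. The log2 fold change was -1.34 against Ctrl (SE 1.11, adjusted p = 0.388) and -1.27 against ALKKO (SE 1.11, adjusted p = 0.42). Without KO replicate 2 the value against Ctrl was -1.36, its SE 0.563 and its adjusted p 0.0879.

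Mef2c, which marks immature T-ALL in patients, was at 6.39, 6.11 and 9.16 CPM in Ctrl and at 6.44, 3.31 and 6.71 CPM in ALK. ALKKO libraries, at 10.1, 9.44 and 11.9 CPM, lay above both groups. The log2 fold changes were -0.39 for ALK against Ctrl (SE 0.935, adjusted p = 0.782), 0.54 for ALKKO against Ctrl (SE 0.927, adjusted p = 1) and -0.93 for ALK against ALKKO (SE 0.939, adjusted p = 0.488). Without KO replicate 2 the last value was -0.96 (SE 0.328, adjusted p = 0.0493), still under the fold change threshold.

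Hoxa9 had 5, 3 and 9 reads in the Ctrl libraries, 1, 1 and 0 in KO, 2, 0 and 3 in ALKKO and none in the 3 tumors. Set against the floor of 3 reads over the group, the pooled level was at least 3.95-fold lower in ALK than in Ctrl. The gene was too low to be tested, and with the low-count filter removed it was called lower in ALK (adjusted p = 0.0441). Tlx1 had 0 to 5 reads per library and none in ALK, and Tlx3 had 1 read in Ctrl replicate 1 and none elsewhere. Expression of Tlx1 and Tlx3 was not detectable above the floor in ALK, and the floor allows up to 0.261 CPM per tumor.

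Counted by separation of the libraries, Hhex and Meis1 of the 7 members tested lay wholly below Ctrl in ALK, where 25.1% of all genes tested did. Lmo2, Hhex, Mef2c and Meis1 lay wholly below ALKKO in ALK, 4 of 7 where 23.7% of all genes tested did. ALK against ALKKO gave 1 called member, Meis1, against a background of 19.6% of genes called in either direction and 12.6% called lower.

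To see what loss of Dnmt1 alone did to these genes, KO was compared with Ctrl. No member was called, either by edgeR or by DESeq2's Wald test, which gave no adjusted p for Hhex and Mef2c, and 0.0187% of all genes tested were called. Lyl1, Lmo2 and Mef2c had an unadjusted p under 0.05, as did 5.52% of all genes tested. The differences came from KO replicate 2.

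In that library Mef2c was at 178 CPM against 8.52 and 10.4 CPM in the other KO mice, Lmo2 at 106 CPM against 7.94 and 11.3 CPM, Lyl1 at 55.3 CPM against 3.07 and 3.77 CPM, and Hhex at 47.1 CPM against 2.22 and 1.75 CPM. These were 19.8, 11.8, 13.5 and 14.4 times the means of the 8 other thymus libraries. Tal1, at 5.84 CPM, was 4.71 times that mean, Lmo1, at 4.04 CPM, was 2.7 times, and Meis1 was 0.36 times. With all 12 libraries the log2 fold changes of KO against Ctrl were 3.18 for Mef2c (SE 0.995), 2.61 for Lyl1 (SE 1.03), 2.37 for Lmo2 (SE 0.816) and 2.16 for Hhex (SE 1.1), each with an adjusted p of 0.864. Without that library they were 0.40, 0.02, 0.26 and -0.92, each with an adjusted p of 1.

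The same library had all 10 B cell markers above every other thymus library, at 25.4 times the mean of their summed level in the 8 others. Pax5, the factor that defines B cells, was at 303 CPM. Relative to the summed B cell markers, Mef2c was at 6.5% in that library against 5.65% to 12.2% in the 8 others, Hhex at 1.72% against 2.04% to 4.25%, Lyl1 at 2.02% against 2.31% to 5.46% and Lmo2 at 3.86% against 7% to 13.2%. Mef2c lay within the range of this ratio in the other thymus libraries, and Hhex, Lyl1 and Lmo2 lay below it. Of the macrophage and granulocyte markers 11 of 13 were also above every other thymus library there, as were 9 of 12 endothelial markers, 8 of 12 erythroid and megakaryocyte markers and 5 of 6 fibroblast markers. The endothelial markers, whose cells also express Tal1, Lyl1 and Lmo2, summed to 827 CPM against 238 to 478 CPM in the 8 others. Itgam of the macrophage and granulocyte list, and Irf8 of the dendritic cell list, were at 0 in all 12 libraries. Irf8 lies wholly and Itgam almost wholly within a gene of the same strand, and of the protein-coding genes wholly within such a gene 407 of 411 were at 0. The part of these cell types in the members' levels was not tested.

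**Figure D2:**
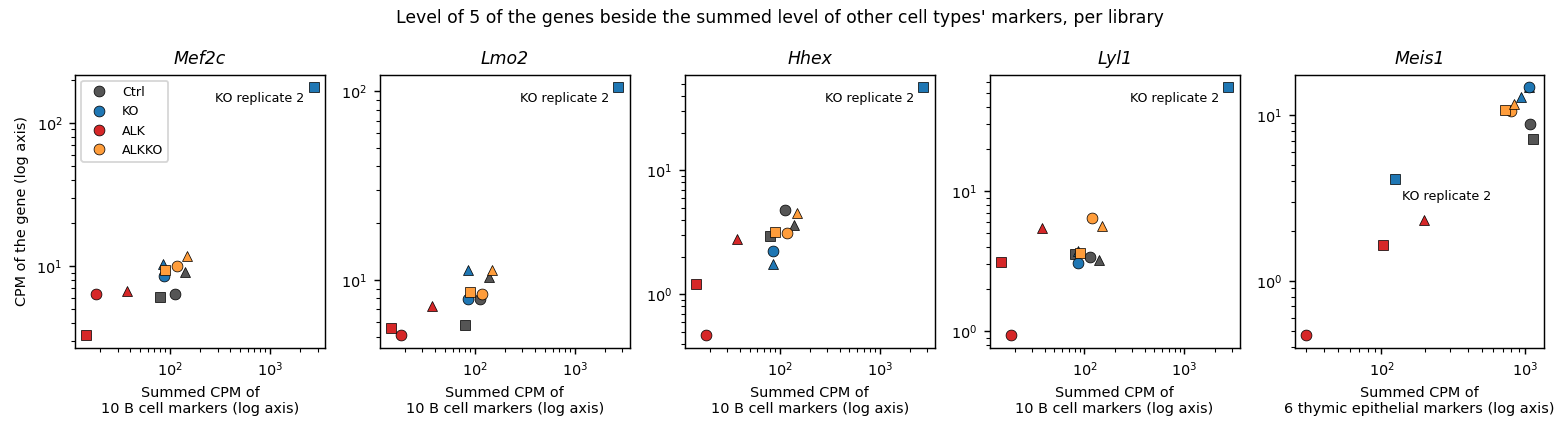
CPM of Mef2c, Lmo2, Hhex and Lyl1 against the summed CPM of 10 B cell markers, and of Meis1 against that of 6 thymic epithelial markers, in each of the 12 libraries on log axes (circle, square and triangle for replicates 1, 2 and 3). KO replicate 2 is alone at the upper right of the first 4 panels (2738 CPM of B cell markers), and in the last panel it lies with the ALK tumors at the low end (124 CPM of epithelial markers).

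The genes most like these members over the 12 libraries rested on the same library. They included Grem1 (r = 0.974) and Nxpe2 (r = 0.973) for Mef2c, Grem1 (r = 0.991), Gm4070 (r = 0.98) and Creg2 (r = 0.978) for Lmo2, Fcrl5 (r = 0.975), Btk (r = 0.973) and Tnfrsf13c (r = 0.972) for Hhex, March1 (r = 0.98), Cd180 (r = 0.966) and Plxnc1 (r = 0.964) for Lyl1, and Nrp2 (r = 0.966), Fcgrt (r = 0.956) and Tbx3 (r = 0.947) for Tal1. Btk, Tnfrsf13c, Cd180 and Fcrl5 are known as B cell genes. Without that library r of Btk with Hhex was 0.871, that of Cd180 with Lyl1 was 0.801, and that of Grem1 with Mef2c was 0.743.

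ALK against KO called 4 members lower, Mef2c, Hhex, Lmo2 and Meis1, where 23.6% of all genes tested were called and 15.7% were called lower. The log2 fold changes were -3.58 for Mef2c (SE 1.02, adjusted p = 0.022), -3.5 for Hhex (SE 1.18, adjusted p = 0.0429) and -2.8 for Lmo2 (SE 0.834, adjusted p = 0.0265). Without KO replicate 2 they were -0.82, -0.44 and -0.72, with adjusted p of 0.116, 0.628 and 0.144, and Meis1 was the 1 call left. Without KO replicate 3 there were 5 calls, Lyl1 being added (-3.21, adjusted p = 0.0381), and KO against Ctrl, ALKKO against KO and the interaction called no member, as with all 12 libraries. Without KO replicate 2, ALK against KO called 20.7% of all genes tested. The share called without KO replicate 3 is not given here.

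**Figure D3:**
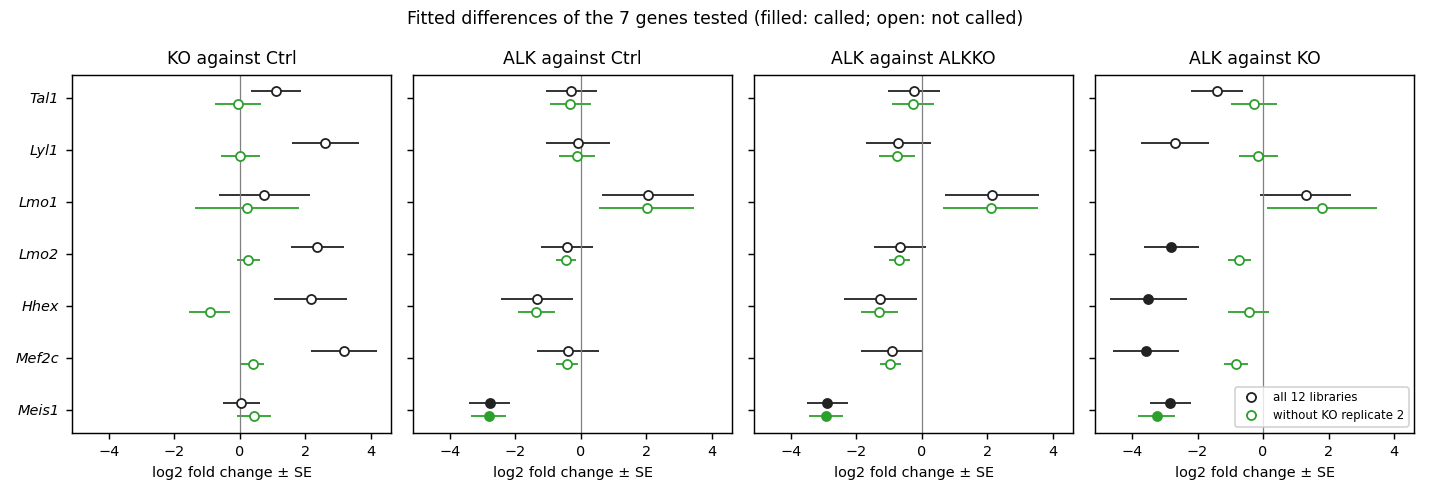
Log2 fold change ± SE of the 7 members tested in 4 comparisons, with all 12 libraries (black) and without KO replicate 2 (green), filled where called. Meis1 is called in all 3 comparisons of ALK with and without that library, while the calls of Lmo2, Hhex and Mef2c in ALK against KO, at -2.8 to -3.58, are lost without it.

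To see whether NPM-ALK changed these genes when Dnmt1 was deleted, ALKKO was compared with Ctrl and KO. Neither comparison called a member by edgeR or by DESeq2's Wald test, where 0.181% and 0.00623% of all genes tested were called by edgeR. None of the 7 members had an unadjusted p under 0.05 in ALKKO against Ctrl, where 3.18% of all genes tested did, and Lmo2 and Mef2c did in ALKKO against KO, where 2.69% did. The log2 fold changes of ALKKO against Ctrl ran from -0.09 to 0.64. Those of Lmo2 and Mef2c against KO were -2.14 (SE 0.81, adjusted p = 1) and -2.65 (SE 0.972, adjusted p = 1), and without KO replicate 2 they were -0.03 and 0.14. Lyl1 and Mef2c lay wholly above Ctrl in ALKKO, 2 of 7 where 9.91% of all genes tested did.

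The genes with which these factors work were followed in ALK against Ctrl from lists that were put together with earlier results of these data known. Of 15 partners of the TAL1/LMO complex, all tested, 2 were called higher and none lower, and the median log2 fold change was 0.41. Runx1, a core factor of that complex and of T-cell development, rose from 144 to 172 CPM in Ctrl to 363 to 686 CPM in ALK, by 1.82 on the log2 scale (SE 0.252, adjusted p = 0.00107). Tcf4, an E protein, rose by 1.59 (SE 0.297, adjusted p = 0.00376). Ldb1, which dimerizes the complex, was at 458 to 648 CPM in Ctrl and at 271 to 589 CPM in ALK and did not pass the test (adjusted p = 0.252). For both called partners the interaction term, in which tumor state and genotype are mixed, was called in the opposite direction. It was -1.55 for Runx1 (SE 0.347, adjusted p = 0.0228) and -1.98 for Tcf4 (SE 0.414, adjusted p = 0.0179). Without KO replicate 2 these were -1.69 (adjusted p = 0.0131) and -1.59 (adjusted p = 0.0213).

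Of the 11 paralogs of the members, 5 were tested and 2 were called, both lower. Meis2, the nearest relative of Meis1, was at 14.1, 15.9 and 23.3 CPM in Ctrl, at 1.01, 3.14 and 6.01 CPM in ALK and at 19 to 22.2 CPM in ALKKO. The tumors followed the same order as for Meis1, and the level fell by 2.39 on the log2 scale (SE 0.523, adjusted p = 0.00788). Mef2a, the broadly expressed relative of Mef2c, fell by 1.62 (SE 0.226, adjusted p = 0.0011), from 208 to 266 CPM in Ctrl to 66.9 to 93.1 CPM in ALK.

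Among 16 other HOXA genes and HOX cofactors, 9 were tested, 1 was called higher and 3 lower, and the median log2 fold change was -0.87. Hoxa7 was at 2.96, 3.16 and 4.69 CPM in Ctrl and at 0.335, 0.0871 and 0.078 CPM in ALK, a difference of -4.32 on the log2 scale (SE 0.6, adjusted p = 0.00107), and the 7 reads in ALK set against 202 in Ctrl. Hoxa2 fell by 2.42 (SE 0.487, adjusted p = 0.00531) at levels near the floor. Pbx3, a DNA-binding cofactor of Meis1 and Hoxa9, rose by 1.26 (SE 0.383, adjusted p = 0.0316), to 18, 16.2 and 6.09 CPM in ALK from 5.28 to 5.84 CPM in Ctrl. Interaction terms were called for Hoxa7, at 4.29 (SE 0.764, adjusted p = 0.00964) or 4.16 without KO replicate 2 (adjusted p = 0.0134), and Hoxa2, at 2.32 (SE 0.64, adjusted p = 0.0459), where the adjusted p without KO replicate 2 was 0.0648. Hoxa3 to Hoxa6 lie within a gene of the same strand and were at 0 in all 12 libraries.

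Of 9 genes for the MLL complex, which maintains HOXA and Meis1 transcription, and the class IIa HDACs, which bind Mef2 proteins, 1 was called. Hdac5 fell by 2.14 (SE 0.197, adjusted p = 0.000152), from 53.8 to 62 CPM in Ctrl to 10.3 to 16.6 CPM in ALK. Its interaction term was 1.8 (SE 0.269, adjusted p = 0.00516), or 1.98 without KO replicate 2 (adjusted p = 0.00269). Kmt2a, the MLL methyltransferase itself, and Men1, its adaptor, were not called.

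Of 13 other genes of early thymic progenitors, 12 were tested, 3 were called lower and none higher, with a median of -0.69. Bcl11a, a lymphoid progenitor and B cell factor, fell by 2.99 (SE 0.996, adjusted p = 0.0447), to 0.134, 0.523 and 1.95 CPM in ALK from 6.27 to 7.5 CPM in Ctrl. Cebpa, a myeloid factor, fell by 2.63 (SE 0.69, adjusted p = 0.0178). Flt3, the cytokine receptor of multipotent progenitors that is also in the list of reported targets, fell by 2.6 (SE 0.812, adjusted p = 0.0352), to 0.604, 0.61 and 4.76 CPM in ALK from 9.85 to 13.5 CPM in Ctrl. Dendritic cells also express Flt3 and Bcl11a, and the 10 dendritic cell markers, of which 6 of 9 tested were called lower, summed to 42.7 to 144 CPM in ALK against 845 to 1091 CPM in Ctrl. Ccr9, which thymocytes also express, made up 83% to 84.5% of that sum in Ctrl, and Flt3 is itself in the list. The 8 other markers, of which Irf8 was at 0, summed to 35.2 to 68.3 CPM in ALK against 121 to 172 CPM in Ctrl. Much of this sum was Bst2 alone, at 28.2 to 42.7 CPM in ALK against 80.7 to 108 CPM in Ctrl. The part of these cells in the falls was not tested.

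Of 17 genes reported as targets of TAL1 or of HOXA9 and MEIS1, 16 were tested, 4 were called higher and 3 lower, with a median of -0.11. Eya1 rose by 5.04 (SE 1.55, adjusted p = 0.0336), at 0.134, 460 and 378 CPM in ALK against 6.11 to 12.4 CPM in Ctrl, so that 1 tumor lay below Ctrl and the other 2 far above it. Igf1r, the IGF1 receptor, rose by 1.93 (SE 0.332, adjusted p = 0.00267). Pim1, a survival kinase named after its values were seen, fell by 1.41 (SE 0.202, adjusted p = 0.0012).

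Of the 8 factors of T-lineage commitment, 2 were called higher and 1 lower. Runx1 is given above. Lef1, an effector of WNT signaling, rose by 1.58 (SE 0.434, adjusted p = 0.0213) and was at 1484, 1466 and 341 CPM in ALK against 367 ± 20.4 CPM (SD, n = 3) in Ctrl, so that ALK replicate 3 did not share the rise. Ets1 fell by 1.04 (SE 0.192, adjusted p = 0.00352). Bcl11b, the factor that silences the progenitor program at commitment, was at 641 to 696 CPM in Ctrl and at 438 to 471 CPM in ALK, with a log2 fold change of -0.53 that was not called.

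Of 10 further T-ALL oncogenes 6 were tested and 2 were called, both higher. Notch1, the gene most often mutated in T-ALL, rose by 3.41 (SE 0.408, adjusted p = 0.000553), to 4081, 1989 and 1082 CPM in ALK from 218 to 233 CPM in Ctrl. Myc, its target, rose by 1.72 (SE 0.207, adjusted p = 0.000553), to 216 to 276 CPM from 69.7 to 77.3 CPM. Interaction terms were called for both, at -2.81 for Notch1 (SE 0.536, adjusted p = 0.0127) and -1.69 for Myc (SE 0.287, adjusted p = 0.00805). Without KO replicate 2 they were -2.90 (adjusted p = 0.0135) and -1.57 (adjusted p = 0.0121).

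**Figure D4:**
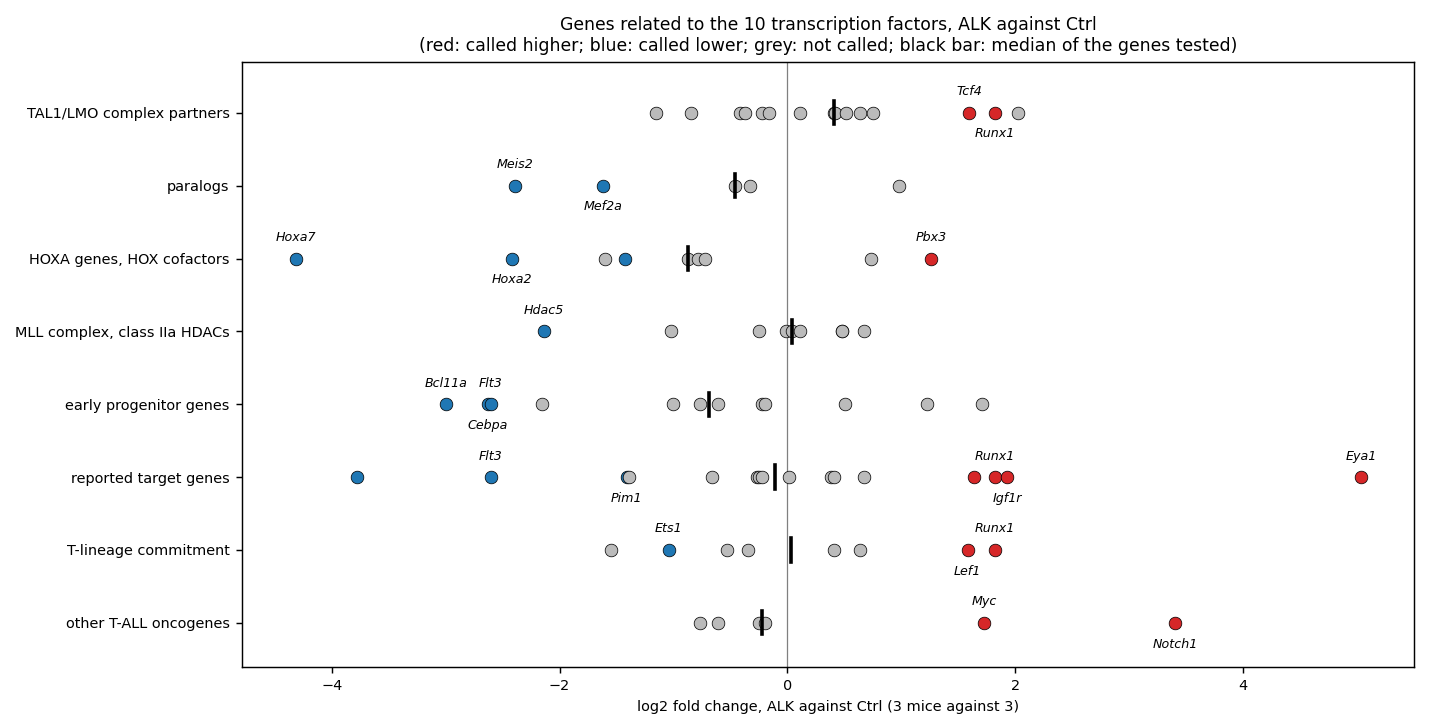
Log2 fold change of ALK against Ctrl (3 mice against 3) for each tested gene of the 8 lists, 1 row a list, with called genes described in the text named and a bar at the median of each list. The called genes run from Hoxa7 at -4.32 to Eya1 at 5.04, and the medians lie between -0.87 for the HOXA genes and cofactors and 0.41 for the TAL1/LMO partners.

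The markers of other cell types were followed in the same comparison. Of 12 endothelial markers none was called (adjusted p under 0.05 and log2 fold change above 1 in size), and endothelial cells, which also express Tal1, Lyl1 and Lmo2, had summed markers of 253 to 361 CPM in ALK and 238 to 346 CPM in Ctrl. Of 10 B cell markers all had a negative log2 fold change and 1, Cd79b, was called lower (-3.64, SE 1.14, adjusted p = 0.0362), with a summed level of 14.6 to 37.5 CPM in ALK against 80.4 to 140.1 CPM in Ctrl. The summed erythroid and megakaryocyte markers ran from 32.9 to 779 CPM in ALK and from 395 to 594 CPM in Ctrl, and 1 of the 10 tested, Epor, was called higher (2.37, SE 0.558, adjusted p = 0.0109). Of the mast cell markers 3 of 5 tested were called lower, Mcpt4 (-4.51) and Cma1 (-4.15) the furthest. Of the 12 stroma markers 4 were called lower, led by Psmb11 (-8.92) and Foxn1 (-5.22) of thymic epithelium, and 3 higher, led by Col1a1 (4.26) and Col1a2 (3.35) of fibroblasts. Dcn, also of the fibroblast list, went the other way, at 22.9 to 45.6 CPM in ALK against 83.1 to 134 CPM in Ctrl. Mpo was the 1 of 12 tested macrophage and granulocyte markers called, at -5.45, Ccr9 (-4.95) and Cd209a (-4.66) led the falls among the dendritic cell markers, and Tnnt3 (-4.38) and Acta1 (-2.8) were the 2 muscle markers called, both lower. Among T cell markers 5 of 11 were called lower, led by Cd8b1 (-6.31) and Cd4 (-4.5). In KO replicate 3, where the muscle markers were high, Mef2c, which is also a heart muscle factor, was at 10.4 CPM, within the range of the ALKKO libraries.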

How the data were processed

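Single-end reads of stranded poly(A) libraries were trimmed and aligned to mm10 with STAR, and the authors deposited the unnormalized HTSeq count of reads per gene. Versions, annotation release and strand setting are not given in the sources used here, apart from Picard 2.19.2 in the submitters' processing notes. Protein-coding genes inside a gene of the same strand were at 0 in 99% of cases, against 20.3% inside a gene of the other strand and 13.2% elsewhere. Counting over whole gene spans would give this pattern, and overlapping genes are undercounted.

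IDs were matched by Ensembl ID without version to GENCODE M21 (50376 of 50600). R 4.3.3 and edgeR 4.0.16 were used for all main tests, with TMM normalization, filterByExpr, 1 term per group over all 12 libraries, robust glmQLFit, glmQLFTest and Benjamini-Hochberg adjustment over all 16052 genes tested, with a common biological coefficient of variation of 0.436. Named are all 10 members, Dnmt1 and Alk, the 2 called genes of each list with the largest rise and fall in ALK against Ctrl, and the 3 genes most like each member. Ldb1, Kmt2a, Men1, Bcl11b, Pax5 and Pim1 were added after their values were seen. A few genes that the rule names are not reported here. The members and lists were chosen with earlier results of these data known. Fits were tested on simulated data. Floors cover counting error only, since reads carried no molecular identifiers. The alternatives were DESeq2 1.42.0, its size factors, no filter, at least 10 counts in every library, replicate number or labelled age in the model, only the groups compared, no fold change threshold and each library left out in turn. Leaving out KO replicate 2 from comparisons without KO was added after the data were seen. Python 3.11.15 drew the plots.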

Additional observations from a re-analysis of the deposited data

How the results depend on the processing

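Meis1 was lower in ALK than in Ctrl and ALKKO under every alternative that tested it. With at least 10 counts required in every library it was not tested, since 1 tumor had 7 reads, and the number of members called went from 1 to 0 in both comparisons. With no filter 2 were called in ALK against Ctrl, Hoxa9 being the second. In ALK against KO the 4 calls became 2 with at least 10 counts, 1 with labelled age as a covariate, 1 with the replicate block and 0 with only the groups compared, and 1 to 5 when 1 library was left out. In the interaction the count of 0 became 1 with DESeq2's Wald test and was 0 to 1 when 1 library was left out. DESeq2 gave no adjusted p for Hhex and Mef2c. KO against Ctrl, ALKKO against Ctrl and ALKKO against KO gave 0 calls under all alternatives. The labels link same-numbered replicates by number only, and do not say whether they share more. Correlations of their deviations ran from -0.106 to 0.426, the highest being for replicate 1 of ALKKO and KO. The replicate block moved no count other than that of ALK against KO.

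Of 373 alternative values of the 28 member differences above 1 in size, 335 kept direction and side of the threshold, 19 lost the call, 6 gained it and 13 changed sign. All 13 came from leaving out 1 library, KO replicate 2 or, for Lmo1, ALK replicate 1. Over the libraries left out, the log2 fold change of Lmo1 ran from -1.28 to 2.60 in ALK against Ctrl, -1.17 to 3.25 against ALKKO, -2.03 to 1.87 against KO and -3.99 to 0.418 in the interaction. In KO against Ctrl Tal1 ran from -0.0569 to 1.99 and Hhex from -0.92 to 2.68. In ALKKO against KO Tal1 ran from -1.63 to 0.00317, Lyl1 from -2.48 to 0.62, Hhex from -2.76 to 0.86 and Mef2c from -3.16 to 0.14. In the interaction Lyl1 ran from -2.36 to 0.74, Lmo2 from -2.17 to 0.43 and Mef2c from -2.75 to 0.57. With 3 mice a group and a floor near 0.2 CPM, changes of Hoxa9, Tlx1 and Tlx3 were limited by depth.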

Other observations

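A few related genes varied between tumors, and are named because of their values. Kit, the stem cell factor receptor, was at 6.44, 51.3 and 68.3 CPM in ALK replicates 1, 2 and 3, against 10.1 to 16.4 CPM in Ctrl, and Gata1, an erythroid factor that can join the Tal1 complex, was at 1.74, 0.435 and 14 CPM. In KO replicate 2, further genes shared by progenitors and B or myeloid cells stood above all 8 other thymus libraries. Bcl11a was at 73.9 CPM, 8.45 times their mean, Hdac9, a class IIa HDAC, at 24.7 CPM, 7.9 times their mean, and Spi1, the factor PU.1, at 88.2 CPM, 5.4 times their mean. In the same library Myb and Bcl11b, which thymocytes express, were at 0.305 and 0.405 times that mean.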
